A study of Mus musculus with 10 samples.

Results

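Of 96188 autosomal regions of open chromatin found in adult neural stem cell cultures, 33805 (35.1%) lay deep inside introns, away from any gene start, and these distal intronic regions are described here. They were chosen by position alone. Peaks of all 10 lists were merged into 137454 regions, of which 99231 held a peak in at least 2 lists (consensus regions). A consensus region was kept when its summit, taken from the peak with the highest −log10 p-value, lay in an intron of a protein-coding gene, outside every exon and more than 3 kb from any gene start (GENCODE M21, GRCm38). The 38223 merged regions with a peak in only 1 list were left out, and 4730 distal intronic regions held a peak in exactly 2 lists.

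Accessible chromatin away from promoters is where most enhancers lie, that is, DNA bound by transcription factors that act on a promoter from a distance, either the promoter of the host gene or that of another gene. Introns of long neural genes hold many of them. In neural stem cells such elements are bound by SOX, NFI and bHLH factors and by AP-1, the FOS and JUN dimer whose genes are switched on by growth factor signalling. Accessibility alone does not show which of them is an active enhancer or which gene it acts on.

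ATAC-seq, in which a transposase cuts open DNA and inserts sequencing adapters, was run on cultures from the subependymal zone (SEZ) of 10-week-old mice, wild type (WT) or p27KO, which lack the product of Cdkn1b, an inhibitor of cyclin-dependent kinases. Proliferating cells (PRO) were neurospheres kept for 3 days with EGF (20 ng/ml) plus FGF at 10 ng/ml, although the study's text also names a longer time. The DIFF libraries, from cells that had begun to differentiate, were made after 2 days on Matrigel with FGF and then 24 h without mitogens in medium with 2% serum, so that mitogens, substrate and serum changed together and cannot be told apart. There were 3 libraries per condition in WT and 2 in p27KO, made from 50000 cells each and labelled as biological replicates; whether each came from a separate animal is not stated in the sources used here. In such bulk samples, a change in the share of cells with a region open and a change in how open it is in each cell cannot be told apart.

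For the p27KO libraries a free-text label speaks of WT cells, contrary to title and genotype, and the groups here follow the title. A peak over Cdkn1b was present in 6 of 6 WT and 0 of 4 p27KO libraries. At promoters, 7 of 8 neural stem and progenitor markers had a peak in all 10 lists, the exception being Pax6. Of 8 microglial markers 5 (Cx3cr1, Csf1r, Ptprc, Itgam and Spi1) had none in any list and 2 (P2ry12 and Aif1) had a peak in all 10. Of 8 endothelial markers 4 (Pecam1, Tek, Tie1 and Emcn) had none and 2 (Kdr and Erg) a peak in all 10. Of 8 mural and fibroblast markers 3 had a peak in all 10 lists and 0 had none, and of 8 ependymal markers 3 had a peak in all 10 and 1 (Pifo) had none. Some of these promoters moved with the condition. The percentile in the list was 87.3 to 93.7 at PRO and 59.1 to 77.1 at DIFF for P2ry12. For Erg it was 80.5 to 90.1 and 24.6 to 71.8, and for Tmem119 47.3 to 73.7 and 0.0 (no peak) to 50.7. PRO and DIFF libraries overlapped for Tmem119, Aif1 and Kdr. The part of other cell types in the results was not tested. The lists held 57534 to 91801 peaks, and the number of reads behind them is unknown. Among the WT DIFF lists that of replicate 3 stood apart, since it held 88738 peaks and the others 61783 and 57534. Peaks on the Y chromosome also divided the libraries by genotype: of 72 consensus regions there, 16 had a peak in every WT and no p27KO library. A difference in the sex of the animals between genotypes was not tested and could not be told apart from p27 loss here.

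Distal intronic regions numbered 16639 to 26120 per list, and their number followed the length of the list. WT PRO lists held 23717, 23699 and 22482 of them, WT DIFF lists 18016, 16639 and 26120, p27KO PRO lists 26019 and 23926, and p27KO DIFF lists 19284 and 22113. WT DIFF replicate 3 thus had the most of all libraries and the other WT DIFF libraries were among the lowest 3. As a share of the autosomal consensus regions with a peak in a list, they took 33.3% ± 0.185 (SD, n = 3) in the proliferating and 33.1% ± 1.32 (SD, n = 3) in the differentiating WT cultures. For p27KO the shares were 33.4% ± 0.458 (SD, n = 2) when proliferating and 33.2% ± 0.94 (SD, n = 2) when differentiating. The difference, DIFF minus PRO, was −0.287 points, within the spread between libraries (two-sided exact permutation test within genotype, p = 0.633; adjusted over both tests 0.84). Between p27KO and WT it differed by 0.0922 points (two-sided exact permutation test within condition, p = 0.84; adjusted 0.84). When every list was cut to its 57000 strongest peaks, the share was instead 0.534 points higher at DIFF (exact permutation p = 0.0333), a direction opposite to that in the full lists.

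The regions were small and weaker than those at gene starts. Their median width was 437 bp (quartiles 267 and 691), and they lay a median of 24.2 kb from the nearest gene start. Over the 10 libraries, the median fold enrichment of their peaks was 4.86 to 5.75, against 7.58 to 9.43 within 3 kb of a gene start and 4.86 to 5.7 between genes. Fewer of them were shared by all lists: 10619 (31.4%) had a peak in all 10 libraries, where 38.2% of all consensus regions did. Of regions within 3 kb of a gene start 62.3% did, and of intergenic regions 29.5%. The introns in which such a region could lie covered 806 Mb, with 41.9 regions per Mb. The first intron held 26.5% of the regions and 23.7% of these bases.

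To compare groups, regions were ordered within each list by their highest fold enrichment, those without a peak sharing the lowest place, and the ranks were converted to normal scores. A region is called higher or lower when limma gave a Benjamini-Hochberg adjusted p under 0.05 over all 70627 consensus regions that 5 or more lists held. Of the distal intronic regions 22934 could be tested in this way and 10871, with a peak in 2 to 4 libraries, could not. The changes below are differences in normal score of rank, not in signal. The shared lowest place differed between lists. A region without a peak had a percentile of 4.61, 4.62 and 5.64 in WT PRO and 12.5, 14.3 and 3.93 in WT DIFF. In p27KO it was 2.82 and 4.5 at PRO and 10.5 and 7.41 at DIFF. A score can thus change with no peak in any library, as in Pcca, by 0.45 from PRO to DIFF in p27KO. This part of the changes was not removed.

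The DNA itself is shown first, for the regions with the largest changes in WT. The 201 bases around the summit are from the plus strand of GRCm38 (RefSeq), with exact matches to the motifs searched in capitals. These motifs were AP-1 (TGANTCA), SOX (ACAAAG and ACAATG), NFI (TTGGCA), the E-boxes CAGCTG and CAGATG bound by bHLH factors, TEAD (CATTCC), the POU octamer (ATGCAAAT), RFX (GTTGCCA), ETS (CCGGAAG), E2F (GGCGGGAA), CREB (TGACGTCA) and the core of the CTCF site (AGGGGGC), each on both strands. NFI and RFX matches can overlap. The longer NFI palindrome, TTGGC and GCCAA with 5 bases between them, was searched as well. A match is a description of the letters and does not show that a factor was bound. Among the regions that fell most, AP-1 matches stood in the windows of Lipc (from base 39 of the window), Bcr (from base 84) and Brinp2 (from base 135, with an NFI match from base 50), the window of Umad1 held both E-boxes, and that of Fam19a2 a TEAD match. The windows were chr9:70942737-70942937 for Lipc, chr6:8299138-8299338 for Umad1, chr10:123364732-123364932 for Fam19a2, chr10:75170576-75170776 for Bcr and chr1:158310521-158310721 for Brinp2.
Lipc: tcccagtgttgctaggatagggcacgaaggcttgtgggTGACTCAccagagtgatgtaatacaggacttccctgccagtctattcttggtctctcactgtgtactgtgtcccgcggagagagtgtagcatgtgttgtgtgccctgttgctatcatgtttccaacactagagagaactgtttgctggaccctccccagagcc
Umad1: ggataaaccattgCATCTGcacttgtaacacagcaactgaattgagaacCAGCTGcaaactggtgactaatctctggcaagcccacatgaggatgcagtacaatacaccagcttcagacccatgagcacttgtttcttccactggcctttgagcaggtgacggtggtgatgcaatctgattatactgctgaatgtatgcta
Fam19a2: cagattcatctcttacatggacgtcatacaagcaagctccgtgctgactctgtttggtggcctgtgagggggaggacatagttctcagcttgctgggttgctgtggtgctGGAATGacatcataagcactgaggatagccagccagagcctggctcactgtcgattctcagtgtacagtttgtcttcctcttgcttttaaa
Bcr: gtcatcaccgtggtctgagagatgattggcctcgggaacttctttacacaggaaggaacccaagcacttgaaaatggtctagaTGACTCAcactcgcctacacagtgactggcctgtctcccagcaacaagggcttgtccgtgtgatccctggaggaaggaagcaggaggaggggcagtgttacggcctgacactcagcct
Brinp2: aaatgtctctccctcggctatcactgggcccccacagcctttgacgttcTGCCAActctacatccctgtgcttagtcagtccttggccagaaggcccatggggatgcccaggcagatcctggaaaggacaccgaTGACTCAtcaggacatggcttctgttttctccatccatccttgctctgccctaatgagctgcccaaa

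Windows are printed for 4 of the regions that rose most, and AP-1 matches occurred among rises as well, as the shares over all called regions show further on. The window of Zc2hc1b held an NFI match from base 29, a TEAD match from base 142 and the E-box CAGCTG from base 179, and that of Irs1 an RFX match from base 188. The windows of Tenm4 and Fam184b held none of the motifs searched, which says only that these letters are not there. Their positions were chr7:96505686-96505886 for Tenm4, chr5:45595842-45596042 for Fam184b, chr10:13151371-13151571 for Zc2hc1b and chr1:82243284-82243484 for Irs1.
Tenm4: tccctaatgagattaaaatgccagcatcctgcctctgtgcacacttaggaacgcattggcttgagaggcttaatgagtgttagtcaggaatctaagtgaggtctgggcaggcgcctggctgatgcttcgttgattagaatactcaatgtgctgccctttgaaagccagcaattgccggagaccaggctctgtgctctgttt
Fam184b: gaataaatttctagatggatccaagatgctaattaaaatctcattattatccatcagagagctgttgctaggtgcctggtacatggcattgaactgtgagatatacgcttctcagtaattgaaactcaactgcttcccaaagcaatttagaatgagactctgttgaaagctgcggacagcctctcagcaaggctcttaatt
Zc2hc1b: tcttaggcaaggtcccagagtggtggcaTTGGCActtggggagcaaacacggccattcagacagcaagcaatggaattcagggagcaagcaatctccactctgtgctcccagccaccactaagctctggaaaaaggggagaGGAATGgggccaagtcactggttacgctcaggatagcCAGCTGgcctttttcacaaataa
Irs1: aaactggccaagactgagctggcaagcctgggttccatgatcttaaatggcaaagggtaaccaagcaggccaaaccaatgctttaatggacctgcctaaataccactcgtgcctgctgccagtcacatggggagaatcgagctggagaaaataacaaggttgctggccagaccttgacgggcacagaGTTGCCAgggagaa

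From PRO to DIFF, distal intronic regions changed in both directions in about equal number. In WT, 2792 of 22934 (12.2%) fell and 2734 (11.9%) rose, where over all 70627 regions 10.1% fell and 9.15% rose. In p27KO, 1844 (8.04%) fell and 1816 (7.92%) rose, against 6.48% and 5.83% of all regions. The median change over the distal intronic regions tested was −0.001 in WT and 0.003 in p27KO, and over all regions tested it was 0.034 and 0.042. Without WT DIFF replicate 3, whose list was the longest at DIFF, 2370 fell and 2381 rose in WT.

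The share called was well above that at gene starts and close to that between genes. Within 3 kb of a gene start, 4.44% of the regions tested fell and 4.95% rose in WT. Between genes 12.3% fell and 10.3% rose. In p27KO the same shares were 2.72% and 2.68% at gene starts and 7.92% and 6.56% between genes. Around the limit of 3 kb, of 2307 regions of any kind 2 to 3 kb from a gene start, 9.23% fell and 9.75% rose in WT (6.81% and 5.9% in p27KO), and of 773 distal intronic regions 3 to 4 kb away, 9.06% fell and 12% rose (6.99% and 8.02% in p27KO).

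**Figure D1:**
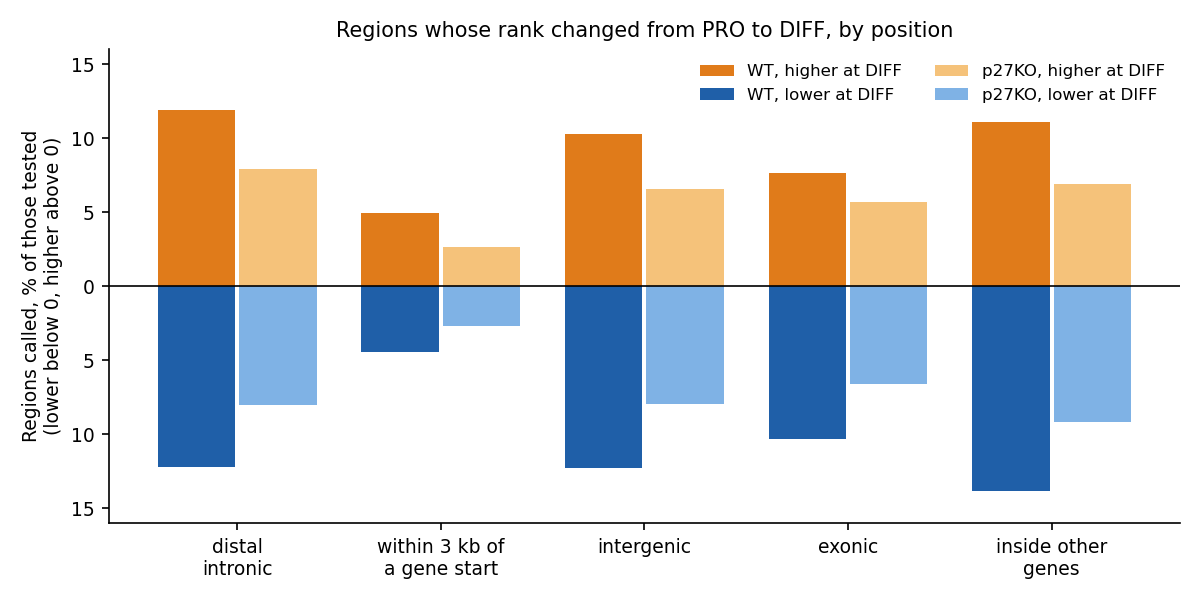
Share of the regions tested that were called higher (above 0) or lower (below 0) at DIFF than at PRO, in percent, for WT (dark bars) and p27KO (light bars), by position of the summit. Distal intronic regions (12.2% lower and 11.9% higher in WT) resemble intergenic ones and exceed regions within 3 kb of a gene start (4.44% and 4.95%).

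The 8 regions with the largest falls had strong peaks in every PRO library and weaker or no peaks at DIFF. In 3 of them (Umad1, Bcr and Brinp2) no WT DIFF library had a peak. In the intron of Lipc, the hepatic lipase gene, the region at chr9:70942510-70943226 (intron 1 of 8) had a fold enrichment of 18.2, 19.1 and 12.7 in WT PRO, no peak in WT DIFF replicates 1 and 2 and 4.44 in replicate 3, 16.5 and 19.5 in p27KO PRO, and 5.61 and 5.68 in p27KO DIFF. PRO and DIFF libraries did not overlap in either genotype. Its normal score fell by 3.13 ± 0.36 (SE) in WT (limma, adjusted p = 0.000227) and by 2.09 ± 0.44 in p27KO (adjusted p = 0.0102).

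A region in Umad1 (chr6:8298814-8299734), which the annotation also places in the overlapping gene Gm45062, had 13.9, 16.3 and 14.2 in WT PRO and no peak in any of the 3 WT DIFF lists. In p27KO it had 17.2 and 16.9 at PRO, no peak in DIFF replicate 1 and 5.68 in DIFF replicate 2. The change was −3.04 ± 0.30 (SE) in WT and −2.59 ± 0.36 in p27KO (limma, adjusted p = 0.000115 and 0.00139). In Bcr, a regulator of small GTPases (chr10:75170300-75170955, intron 16 of 22), the fold enrichment was 15.1, 15.3 and 12.2 in WT PRO, with no WT DIFF peak. The p27KO libraries had 14.3 and 16.5 at PRO and, at DIFF, no peak and 3.12. The change was −2.92 ± 0.25 (SE) in WT and −2.69 ± 0.31 in p27KO (limma, adjusted p = 7.69e-05 and 0.000581). In Brinp2, a neural gene named for its induction by BMP and retinoic acid (chr1:158310357-158311013, intron 1 of 7), WT PRO libraries had 16.5, 12.9 and 11.9 and WT DIFF libraries no peak. The p27KO libraries had 17.5 and 17.5 at PRO and 6.37 and 4.54 at DIFF, with changes of −2.85 ± 0.31 (SE) in WT and −2.08 ± 0.37 in p27KO (limma, adjusted p = 0.000164 and 0.00478). All 4 regions were thus high in every PRO library of both genotypes. At DIFF, p27KO replicate 2 had a peak of 3.12 to 5.68 in each of them. Of the WT libraries only replicate 3 had a DIFF peak, in Lipc. The difference between genotypes was not past the threshold for any of them (limma interaction, adjusted p = 1).

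The other regions named for their fall lay in Commd10, Fam19a2 (a secreted chemokine-like protein of the brain), Nhlrc2 and BC052040, with changes in WT from −2.98 to −2.79. In Fam19a2 the fold enrichment was 15.7, 15.1 and 15.1 in WT PRO, no peak, no peak and 3.39 in WT DIFF, 15.8 and 17.2 in p27KO PRO, and no peak and 5.68 in p27KO DIFF. All 8 regions fell in p27KO as well. That in Commd10 lay 2.22 kb from the start of another transcript, although 6.96 kb from a gene start.

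The largest rises were of the same kind in the other direction. In Tenm4, which encodes a teneurin, a transmembrane protein of neural cell contacts (chr7:96505430-96506254, intron 4 of 32), no WT PRO library had a peak, while WT DIFF libraries had 12.2, 10.9 and 12.3. In p27KO the values were 2.87 and no peak at PRO and 11.2 and 14.4 at DIFF. The normal score rose by 3.00 ± 0.18 (SE) in WT and by 2.81 ± 0.22 in p27KO (limma, adjusted p = 4.76e-05 and 0.000284). In Irs1, the insulin receptor substrate (chr1:82242906-82243713, its only intron), WT DIFF libraries had 10.5, 8.54 and 11.9 and WT PRO libraries no peak. The p27KO libraries had 2.87 and no peak at PRO and 8.73 and 13.5 at DIFF, and the change was 2.72 ± 0.18 (SE) in WT and 2.55 ± 0.23 in p27KO (limma, adjusted p = 5.32e-05 and 0.000284). In Fndc3b (chr3:27478187-27479108, intron 11 of 25) no PRO library of either genotype had a peak, and the DIFF libraries had 8.96, 9.95 and 11.4 in WT and 8.52 and 10.4 in p27KO.

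The region in Malrd1 rose by 2.99 ± 0.20 (SE) in WT and by 1.60 ± 0.25 in p27KO (limma, adjusted p = 5.32e-05 and 0.00208). Its fold enrichment was 12.6, 8.79 and 13.7 in WT DIFF with no WT PRO peak, and 5.27 and 5.14 in p27KO PRO and 11.2 and 15.0 in p27KO DIFF. As in Fam184b (4.31 and 5.14), both p27KO PRO libraries had a peak. The interaction in Malrd1 was not past the threshold (−1.39, 95% interval −2.09 to −0.69, limma adjusted p = 1). The remaining named rises, in Me2 (the mitochondrial malic enzyme), Fam184b, Zc2hc1b and Lypd6b, were 2.69 to 2.89 in WT, and all 8 rose in p27KO too. The 37 bases around the summit were found only once in the genome for all 16 regions with the largest falls and rises.

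**Figure D2:**
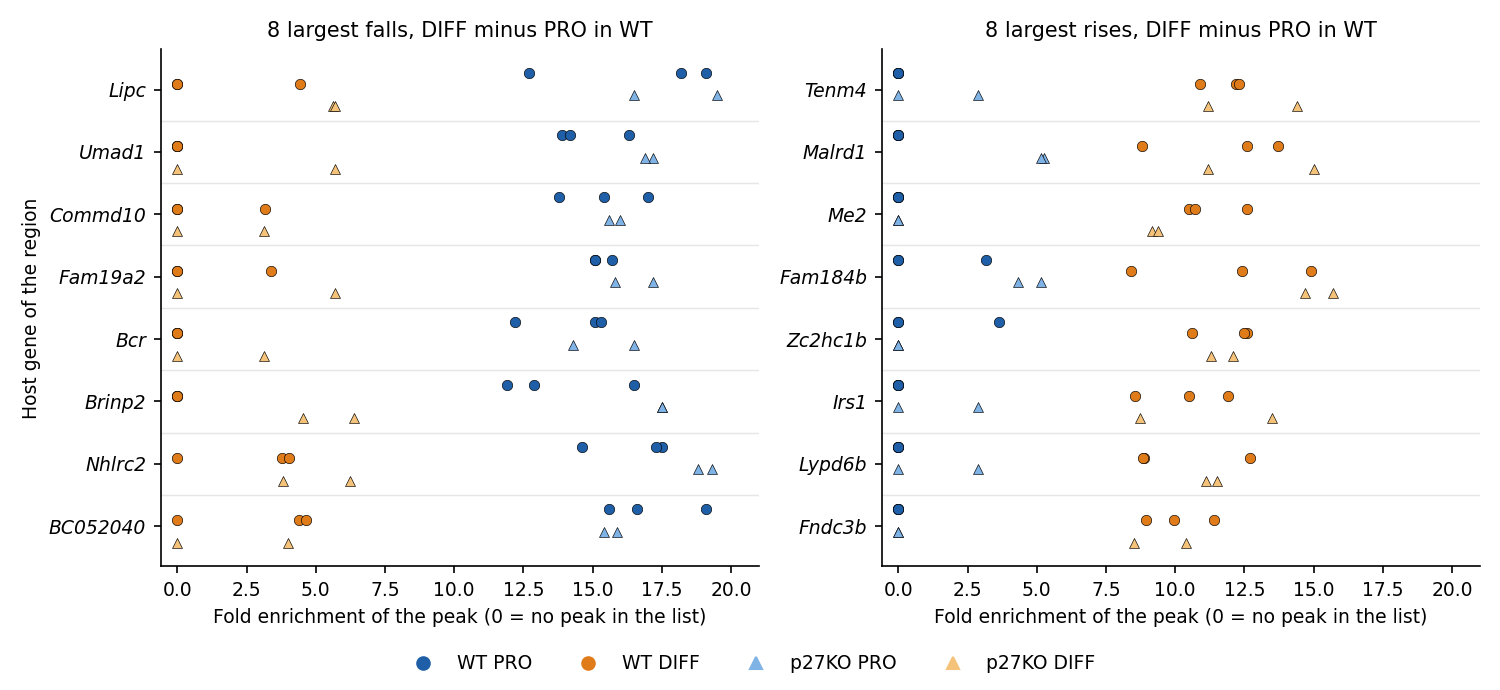
Fold enrichment of the peak in each of the 10 libraries (x axis, 0 where the list has no peak) for the 8 regions with the largest fall (left) and the 8 with the largest rise (right) in WT, at most 1 per host gene. Circles are WT and triangles p27KO libraries, blue PRO and orange DIFF. In each of the 8 falls the PRO libraries of both genotypes lie at 11.9 or above and the DIFF libraries below them, and in the rises the order is the opposite.

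Presence alone gave unequal numbers, and the lists were of unequal length as well. The cause of the unequal numbers was not tested. A region was called closed when every PRO and no DIFF library of a genotype had a peak, and opened in the opposite case. In WT, 1629 distal intronic regions (4.82%) closed and 845 (2.5%) opened, beside 4.32% and 1.86% of all consensus regions. In p27KO, with 2 libraries per condition, 4093 (12.1%) closed and 1441 (4.26%) opened, beside 10.9% and 3.32%. In both genotypes 988 (2.92%) closed and 436 (1.29%) opened, beside 2.61% and 0.959%. In every pair of numbers more regions closed than opened, and the PRO lists were longer than all DIFF lists but that of WT DIFF replicate 3. With each list cut to its 57000 strongest peaks, 1342 closed and 1266 opened in WT and 1965 closed and 1934 opened in p27KO. Without WT DIFF replicate 3 the WT counts were 3718 and 931.

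The regions that changed in WT moved the same way in p27KO. Of 2792 that fell in WT, 1477 also fell in p27KO, which is 52.9% of the WT and 80.1% of the p27KO list. Of 2734 that rose in WT, 1469 also rose in p27KO, or 53.7% and 80.9%. None of those called in WT was called in the opposite direction in p27KO, and 97.6% of the falls and 97.0% of the rises had the same sign there. Over the regions called in WT, the median change was −1.05 in WT and −1.01 in p27KO for falls, and 1.15 and 1.04 for rises. These medians are of regions chosen for their change in WT. The p27KO libraries entered that choice through the shared estimate of the spread and the filter on the number of lists with a peak. A region with a peak in every WT PRO and no WT DIFF library, or the reverse, was tested only if p27KO lists held it too. Such changes in WT with no peak in p27KO could thus not be tested, and the agreement between genotypes depends in part on the filter.

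Fewer regions were called in p27KO, where each condition had 2 libraries and not 3, and the difference itself gave no call. The interaction, that is, the change in p27KO minus the change in WT, called 0 of 22934 distal intronic regions (limma; over all regions 0.0% were lower and 0.0% higher). At an unadjusted p under 0.05 it held 1041 of them and 2760 of all regions. The filter on the number of lists bears on the calls here as well. When 2 lists sufficed for testing, the interaction called 4 distal intronic regions, all lower, and 16 of all regions. The 95% interval of the interaction had a median width of 0.83 on either side of the estimate. The smallest unadjusted p among distal intronic regions was in Nln, a peptidase gene (chr13:104048834-104049142), with fold enrichments of 5.82, 5.21 and 6.1 in WT PRO, no peak, no peak and 5.5 in WT DIFF, no peak in p27KO PRO, and 4.08 and 5.68 in p27KO DIFF. Next came Kcnn3, a calcium-activated potassium channel gene (chr3:89605304-89605695), with 3.32, 3.4 and no peak in WT PRO, 3.79, 3.47 and 4.44 in WT DIFF, 4.55 and 4.41 in p27KO PRO, and no peak in p27KO DIFF. The interaction was 2.23 (95% interval 1.33 to 3.13) in Nln and −1.60 (−2.25 to −0.94) in Kcnn3, with a limma adjusted p of 1 for each.

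Between genotypes within a condition, very few of the distal intronic regions tested were called. At PRO 3 were lower and 1 higher in p27KO than in WT, or 0.0131% and 0.00436% of those tested, where 0.0311% and 0.00283% of all regions were. Of the 24 regions called at PRO, 14 lay on Y. At DIFF 1 was lower (0.00436%, beside 0.0156% of all regions, 9 of whose 11 calls lay on Y) and 0 were higher (limma, 0.0% of all regions). An unadjusted limma p under 0.05 at DIFF was found for 1263 of 22934 distal intronic regions and 3466 of all 70627 regions tested. By presence, 4 distal intronic regions had a peak in every WT and no p27KO library (0.0118%, beside 0.0292% of all consensus regions). They lay in Pcca, Nxpe4, Rims1 and Bbip1 (named after their values were seen). The opposite was found for 11 (0.0325%, beside 0.0574%). Regions of this latter kind were held by only 4 lists and the test took 5 or more, so none of the 11 was tested. Regions found only in WT could be tested, so the split between lower and higher depends on this filter. When 2 lists sufficed for testing, 2 distal intronic regions were lower and 8 higher in p27KO at PRO, and 2 and 0 at DIFF.

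The region in Pcca, a subunit of propionyl-CoA carboxylase (chr14:122568953-122569112, intron 4 of 23), had fold enrichments of 21.6, 21 and 27.1 in WT PRO and 12.1, 20.6 and 12.7 in WT DIFF, and no peak in any p27KO library. Its difference in normal score, p27KO minus WT, was −4.79 ± 0.41 (SE) at PRO and −3.25 ± 0.41 at DIFF (limma, adjusted p = 0.00117 and 0.0409). The call at DIFF was lost when any of 8 libraries was left out in turn, with a limma adjusted p up to 0.424, and when only the groups compared entered the fit (0.605). In Nxpe4 (chr9:48217552-48217786), WT libraries had 10.8, 10.2 and 10.7 at PRO and 6.32, 7.4 and 5.93 at DIFF, and p27KO libraries no peak (change at PRO −2.66, limma adjusted p = 0.00168). Both windows consisted wholly of soft-masked repeat sequence, and the 37 bases around the summit had 950 exact copies in the genome for Pcca and 749 for Nxpe4. In Nrg1, which encodes neuregulin, a ligand of ErbB receptors (chr8:32806193-32806661), WT libraries had 8.03, 6.35 and 6.59 at PRO and 3.79, 3.47 and 3.81 at DIFF, and of the p27KO libraries only DIFF replicate 1 had a peak, at 3.57 (change at PRO −1.98, limma adjusted p = 0.0456). In Lats2, a kinase of the Hippo pathway (chr14:57753481-57754007), WT libraries had no peak at PRO and 6.07, 6.02 and 9.52 at DIFF, and p27KO libraries 5.51 and 6.61 at PRO and 8.92 and 10.5 at DIFF (change at PRO 1.55, limma adjusted p = 0.0266). RefSeq does not place this last region inside the gene. The calls in Nrg1 and Lats2 were lost under most alternatives.

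Regions that fell and regions that rose differed in the motifs they held, and in the same way in both genotypes. An AP-1 match was found in 23.1% of the distal intronic regions that fell in WT, 4.54% of those that rose and 7.85% of those not called, beside 8.85% of all autosomal consensus regions. In p27KO the shares were 26.2% of falls and 4.02% of rises. E-boxes were also more frequent among falls. The palindromic E-box CAGCTG was in 35.4% of falls, 16.7% of rises and 23.4% of the rest in WT, beside 21% of all autosomal regions, and CAGATG in 27.8%, 15.0% and 19.3%, beside 17.7%. The NFI motif had the opposite order, with 19.9% of falls, 34.1% of rises and 20.2% of the rest, beside 18.8%. TEAD matches were in 17.3% of falls, 23.8% of rises and 14.9% of the rest, beside 14.6%.

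The other motifs differed less or were rare. The CTCF core was in 3.8% of falls and 3.11% of rises but 7.67% of regions not called, beside 7.39% of all autosomal regions. CREB matches were in 0.931% of falls and 0.0366% of rises (0.795% of all), RFX in 7.63% and 5.23% (5.39%), and ETS in 2.22% and 0.878% (3.27%). SOX ACAAAG was in 26.6% and 24.5% (20.8%), SOX ACAATG in 15.7% and 13.3% (11.9%), the POU octamer in 2.11% and 1.68% (1.95%), E2F in 0.322% and 0.439% (0.723%) and the NFI palindrome in 0.179% and 0.0366% (0.112%). Median GC content was 50.2% for falls, 49.8% for rises and 50.7% for the rest. The same contrasts were found between genes, where AP-1 was in 26.3% of falls and 4.95% of rises and NFI in 20.7% and 34.3%, so these values were not particular to introns. They were also present in regions with a peak in all 10 lists, where presence cannot differ: AP-1 was in 18.9% of 752 falls and 4.32% of 950 rises, and NFI in 22.7% and 35.3%.

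Read from the motif, 30.2% of 2135 tested distal intronic regions with an AP-1 match fell in WT and 5.81% rose, against 10.3% and 12.5% of those without. In p27KO 22.7% fell and 3.42% rose. Of 4999 with an NFI match 11.1% fell and 18.6% rose in WT. Where AP-1 stood without NFI (1667 regions) 30.4% fell and 4.68% rose, where NFI stood without AP-1 (4531) 9.23% and 19.5%, and where both were present (468) 29.5% and 9.83%. Regions with both thus fell about as often as regions with AP-1 alone.

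The same order was seen in every library. The median percentile of AP-1 regions, among all regions tested in a list, was 52.6, 49.1 and 47.9 in WT PRO, 35.8, 32.8 and 34.7 in WT DIFF, 47.7 and 51.3 in p27KO PRO, and 32.4 and 32.0 in p27KO DIFF. All PRO libraries lay above all DIFF libraries. That of NFI regions was 44.2, 43.9 and 42.1 in WT PRO, 50.2, 49.4 and 49.3 in WT DIFF, 43.1 and 43.8 in p27KO PRO, and 48.6 and 48.2 in p27KO DIFF, with every DIFF above every PRO library. For all distal intronic regions tested it stayed between 43.4 and 45.3 in all 10. Regions with the CTCF core ranged from 43.6 to 49.2 and their PRO and DIFF libraries overlapped. For AP-1 and NFI, WT DIFF replicate 3 lay with the other DIFF libraries.

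**Figure D3:**
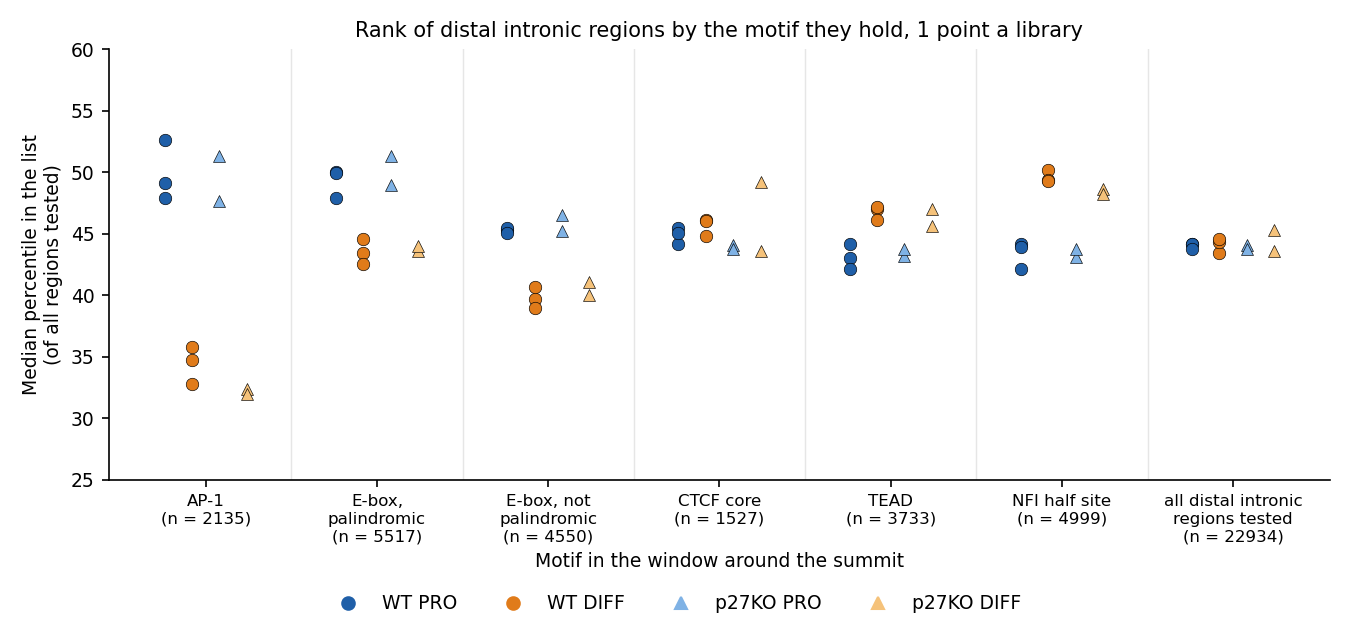
Median percentile of the fold enrichment within a list (y axis, among all regions tested) of the distal intronic regions that hold a motif in the window around the summit; each point is a library, circles WT and triangles p27KO, blue PRO and orange DIFF. For AP-1 the PRO libraries lie at 47.7 to 52.6 and the DIFF libraries at 32.0 to 35.8, and for NFI the DIFF libraries lie above the PRO libraries.

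Shares were also counted by distance from the nearest gene start. In WT, 10.5% of the regions 3 to 10 kb from a gene start fell and 10.7% rose, 12.1% and 12.1% at 10 to 30 kb, 12.8% and 12.2% at 30 to 100 kb, 14.5% and 12.8% at 100 to 300 kb, and 12.5% and 14.7% of the 136 tested beyond 300 kb. In p27KO the shares went from 6.51% and 6.91% at 3 to 10 kb to 10.1% and 8.61% at 100 to 300 kb, and were 5.88% and 11.8% beyond. The first intron held 26.2% of the falls, 26.7% of the rises and 26.5% of the regions not called.

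Neighbouring regions were often called in opposite directions when they lay within 5 kb of each other. Of 110 pairs of adjacent called distal intronic regions with a gap of at most 2 kb in WT, 34 (30.9%) moved the same way, and of 158 pairs 2 to 5 kb apart 45 (28.5%) did. At 5 to 20 kb 350 of 623 pairs (56.2%) and at 20 to 100 kb 767 of 1478 pairs (51.9%) moved the same way. In p27KO the shares were 36.1%, 30.6%, 54.7% and 52.8%. Over all adjacent tested pairs, called or not, the changes in WT had a Pearson r of −0.138, −0.159, 0.04 and 0.032 in the same bins; these pairs share their libraries, and r is given as a description. Ranked by −log10 p-value instead of fold enrichment, 40.4% and 41.3% of the called WT pairs within 2 kb and at 2 to 5 kb moved the same way, and 57.0% at 5 to 20 kb. By that rank, p27KO pairs moved the same way in 49.2%, 40.8% and 57.2% of cases. The low share was then absent between genes, with 53.1% and 49.5% within 5 kb in WT and 61.5% and 50.0% in p27KO. By fold enrichment the share was low between genes too, at 34.2% and 33.7% within 5 kb in WT and 36.0% and 39.4% in p27KO.

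The fold enrichment in these lists is set against a background estimated nearby in that library, into which reads of a close neighbour can enter, and the part of this in the pattern was not tested. Regions with no other consensus region within 5 kb gave much the same picture as the whole: of 12312 tested, 13.4% fell and 11.7% rose in WT, and 8.77% and 7.81% in p27KO. Among them AP-1 was in 22.7% of falls and 5.47% of rises in WT, and NFI in 20.5% and 35.0%.

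**Figure D4:**
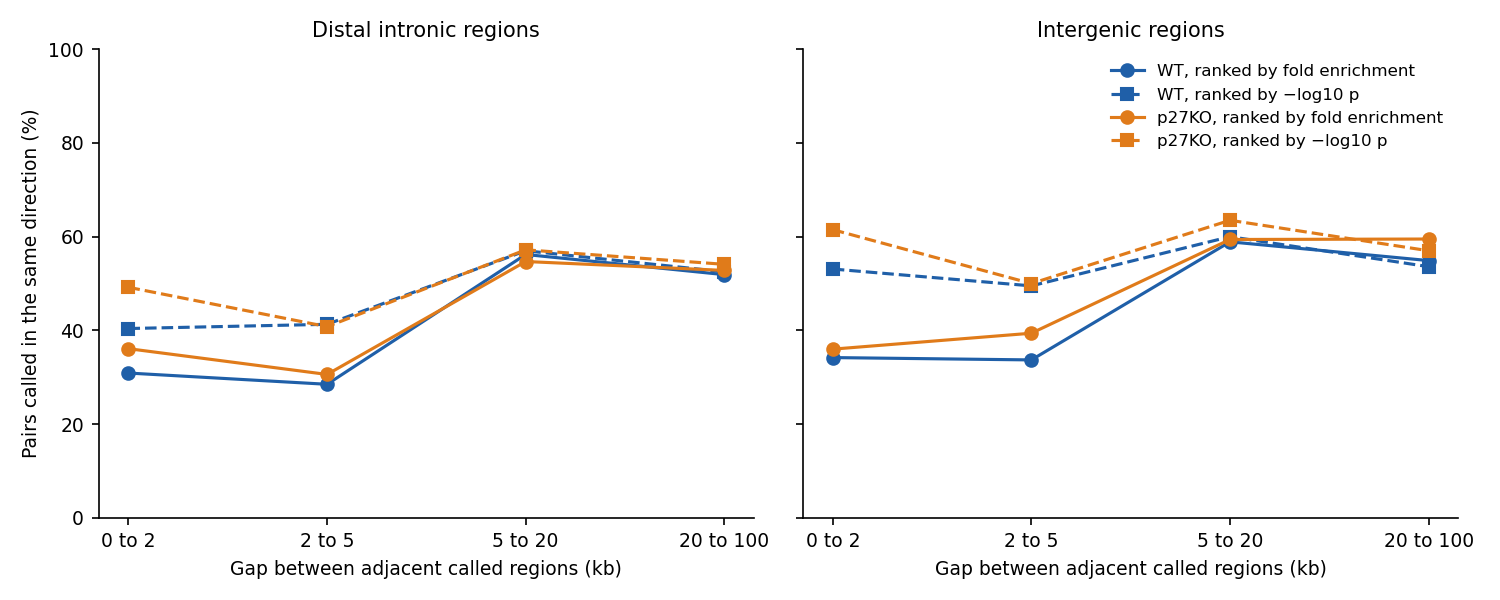
Share of adjacent called regions that moved in the same direction from PRO to DIFF (y axis, percent of pairs) by the gap between them (x axis, kb), for distal intronic (left) and intergenic regions (right), in WT (blue) and p27KO (orange), with regions ranked by fold enrichment (solid) or by −log10 p-value (dashed). By fold enrichment the share in distal intronic WT pairs is 30.9% and 28.5% within 5 kb and 56.2% at 5 to 20 kb. In intergenic WT pairs it is 34.2% and 33.7% within 5 kb.

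The regions were spread over 7993 host genes in the GENCODE annotation, and 756 regions lay in more than 1 gene. The host also spanned the region in RefSeq for 32622. By RefSeq spans 7647 genes were hosts, with a median of 2 regions, 2855 with a single region and 237 with 20 or more. The GENCODE records of Gm20388 (218 regions) and Fgfr2 (115) extend over megabases, and only 0 and 3 of these regions lay in their RefSeq spans, so both are set aside. The next, by GENCODE, were Nav2 with 73 regions (68 in its RefSeq span), Nrxn3 with 63, Camta1 with 61, Ptprd with 59, Nckap5 with 58 and Arhgap26 with 57, all long genes. Arhgap26, which encodes a GTPase activating protein, had the densest set of these, with 16.1 regions per 100 kb of intron, against 2.69 in Ptprd.

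Most host genes with several called regions had calls in both directions. Of 2905 host genes with a call in WT, 751 had both a fall and a rise. Among the 585 with at least 3 calls, 475 had both, 52 had only falls and 58 only rises. Arhgap26 had the most falls, 10 of 39 tested, with 3 rises. It was followed by Anks1b (8 of 20, with 2 rises), Cdh13, encoding T-cadherin (8 of 24, with 3), Dpp6, an accessory subunit of potassium channels (8 of 29, with 2), the read-through gene Iqschfp (8 of 26, with 1) and the RNA-binding gene Rbms3 (8 of 36 regions, 26 of them tested, with 2). The most rises were in Nav2, a neuron navigator (11 of 53, with 4 falls; 9 of 49 in the RefSeq span), Msi2, the RNA-binding Musashi protein of neural stem cells (9 of 30, with 4), Csmd1 (8 of 31, with 2), the receptor phosphatase gene Ptprd (8 of 35, with 2), Slit3, an axon guidance ligand (8 of 27, with 5) and Xylt1, which starts proteoglycan chains (8 of 22, with 4). In p27KO Arhgap26 had 8 falls and 3 rises and Nav2 2 falls and 6 rises.

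Hosts with calls in only 1 direction in WT are named here after their values were seen. Esrrg, an orphan nuclear receptor, had 7 falls and 0 rises among 16 regions tested, Arhgef3 6 among 11 and Kcnma1, the large-conductance calcium-activated potassium channel, 5 among 14. Tenm4 had 7 rises and 0 falls among 30, Ctnnd2, encoding delta-catenin, 6 among 24 and Cacna1a, a neuronal calcium channel, 5 among 15. In p27KO the first 3 had 3, 4 and 4 falls with 0 rises, and the last 3 had 7, 6 and 5 rises with 1, 0 and 1 falls.

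For lists of host genes with roles at stake in these cultures, counts are read beside those of all distal intronic regions, which were 12.2% falls and 11.9% rises in WT. The share of falls ran from 8.0% to 19.2% and that of rises from 2.0% to 20.2%, with the extremes in lists of 26 to 129 tested regions. Among progenitor transcription factors, 29 of 40 genes hosted 303 tested regions, of which 32 (10.6%) fell and 46 (15.2%) rose in WT and 26 (8.58%) and 23 (7.59%) in p27KO. Sox5, which encodes a SOX factor, had 6 falls and 3 rises of 28 tested. Nfia, which encodes an NFI factor, had 2 falls and 7 rises of 20, Npas3 3 and 4 of 25, and Sox6 1 and 1 of 20. Among astrocyte genes, 21 of 40 hosted 129 tested regions, of which 12 (9.3%) fell and 26 (20.2%) rose in WT and 8 (6.2%) and 15 (11.6%) in p27KO. Rises numbered 6 of 28 in the glypican gene Gpc6, 4 of 19 in Gpc5 and 5 of 18 in the nuclear receptor gene Rora. Slc4a4, a bicarbonate transporter, had 3 of 13. Falls in Gpc6, Gpc5, Rora and Slc4a4, the genes of the list with the most tested regions, numbered 5, 0, 1 and 1. Other genes had no rises, as Aldh1l1 (0 of 5), Slc1a3 (0 of 4) and Kcnj10 (0 of 3). Some did, as Daam2 (2 of 7) and Slc1a2 (1 of 3). The median change over this list was −0.03 in WT, beside −0.001 over all distal intronic regions.

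For neuronal genes, 36 of 40 hosted 442 tested regions, with 60 falls (13.6%) and 50 rises (11.3%) in WT and 45 (10.2%) and 41 (9.28%) in p27KO. Nrxn3, a neurexin of the synapse, had 5 falls and 4 rises of 46, Rbfox1, a splicing factor, 3 and 5 of 34, and Celf4 3 and 5 of 25. For oligodendrocyte lineage genes, 31 of 40 hosted 181, with 22 falls (12.2%) and 28 rises (15.5%) in WT and 11 (6.08%) and 14 (7.73%) in p27KO, among them 3 and 4 of 23 in the kinase gene Fyn, 4 and 8 of 22 in Xylt1, 3 and 2 of 18 in Dscam and 3 and 2 of 16 in Tns3. For mitogen receptors and ERK signalling, 28 of 40 hosted 98, with 15 falls (15.3%) and 11 rises (11.2%) in WT and 9 (9.18%) and 7 (7.14%) in p27KO. Igf1r, the IGF receptor, had 5 falls and 2 rises of 15, the adaptor gene Gab1 2 and 1 of 10, and the receptor genes Egfr and Erbb4 each 0 falls and 2 rises of 8.

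For Notch, BMP and TGF-beta signalling, 34 of 40 hosted 157, with 22 falls (14.0%) and 18 rises (11.5%) in WT and 14 (8.92%) and 17 (10.8%) in p27KO. The Notch coactivator gene Maml2 had 5 and 6 of 30, Maml3 1 and 1 of 16, the BMP receptor gene Bmpr1b 2 and 1 of 13 and Ltbp1, which binds latent TGF-beta, 1 and 1 of 12. For YAP, SRF and cytoskeletal genes, 30 of 40 hosted 142, with 14 falls (9.86%) and 9 rises (6.34%) in WT and 12 (8.45%) and 6 (4.23%) in p27KO. Limch1 had 1 fall and 5 rises of 16, Tead1 0 and 0 of 13 and Filip1l 2 and 0 of 11. Of the cell cycle genes 16 of 40 were hosts, and of 50 tested regions 4 (8.0%) fell and 1 (2.0%) rose in WT. There were 0 calls among 12 in Cdk6, 5 in Ccnd3 and 3 in Ccnd2 and 2 falls of 18 in Cdk14. Most tested regions of this list thus lay in Cdk14 and Cdk6. In p27KO 3 (6.0%) fell and 3 (6.0%) rose. For gp130 and STAT signalling, 12 of 20 genes hosted 26, with 5 falls (19.2%) and 1 rise (3.85%) in WT and 2 (7.69%) and 2 (7.69%) in p27KO. Jak1 had 1 fall of 5, the receptor gene Cntfr 1 fall and 1 rise of 4, the LIF receptor gene Lifr 0 calls of 3 and the phosphatase gene Ptpn1 1 fall of 3.

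**Figure D5:**
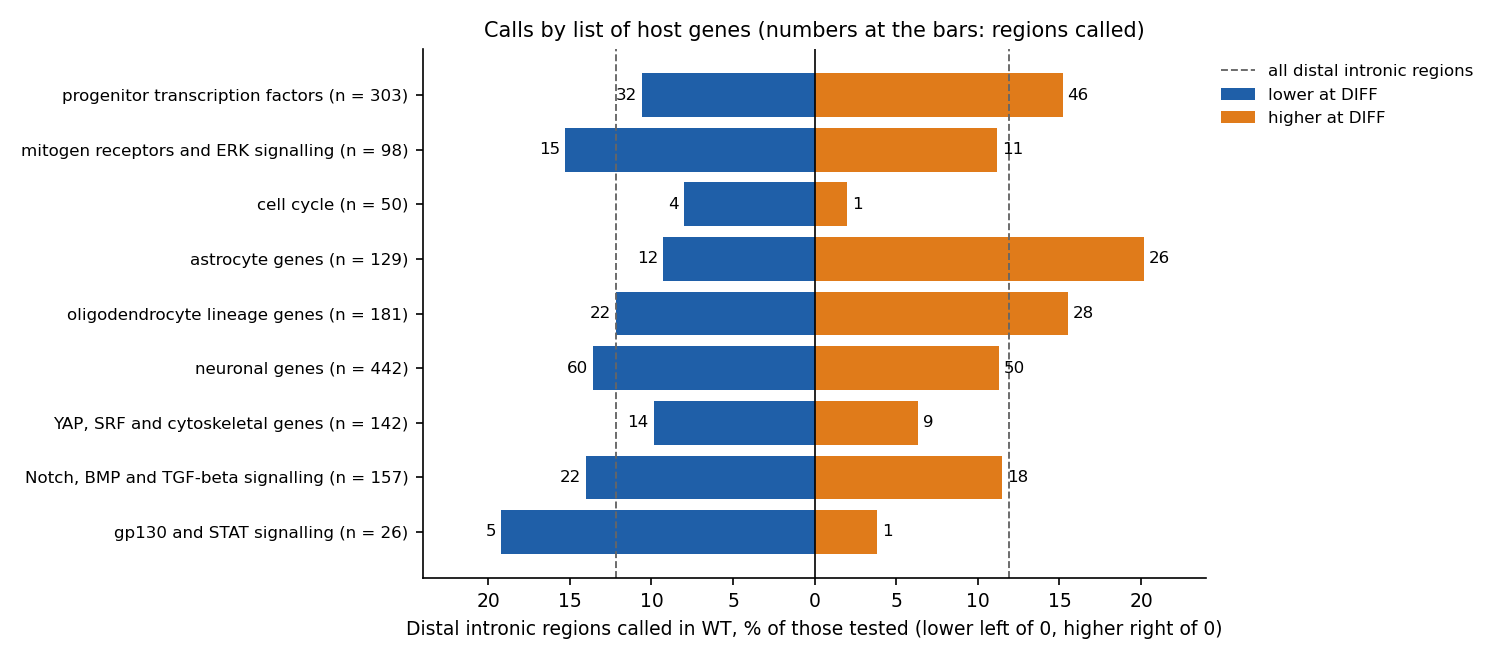
Share of the tested distal intronic regions that were called lower (left) or higher (right) at DIFF in WT, in percent, for 9 lists of host genes, with the number called at each bar and the number tested in brackets. Dashed lines mark the shares over all distal intronic regions, 12.2% lower and 11.9% higher. Astrocyte genes reach 20.2% higher, YAP, SRF and cytoskeletal genes 6.34%, cell cycle genes 2.0% and gp130 and STAT signalling 3.85%.

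The 5 regions with the highest mean rank were at the top of every list, and the summit sequence of each had exact copies elsewhere. In Chl1, a cell adhesion gene (chr6:103649055-103649295, intron 3 of 26), the fold enrichment was 55.2, 54.7 and 59.1 in WT PRO, 58.1, 61.2 and 55.4 in WT DIFF, 62.3 and 57.1 in p27KO PRO, and 58.8 and 64.0 in p27KO DIFF, so that groups overlapped. In Gphn, which encodes gephyrin, a scaffold of inhibitory synapses (chr12:78350869-78351174, intron 2 of 23), it was 38.7, 38.5 and 36.2 in WT PRO, 33.4, 33.5 and 35.2 in WT DIFF, 44.5 and 38.3 in p27KO PRO, and 39.2 and 42.0 in p27KO DIFF. The regions in Greb1, Dop1b and Il31ra ranged from 27.2 to 44.8. Ranks this close to the top of every list leave no room for a call, and no test is drawn on. In fold enrichment, every WT PRO library lay above every WT DIFF library in Gphn, Greb1, Dop1b and Il31ra. In p27KO the same order was found in Greb1, Dop1b and Il31ra, while PRO and DIFF libraries overlapped in Gphn. In Greb1 the WT values were 40.4, 37.3 and 41.4 against 31.9, 31.5 and 32.0. The median over all distal intronic peaks had the same order, at 5.37 to 5.7 in WT PRO and 4.86 to 5.17 in WT DIFF. In p27KO this median overlapped, at 5.51 and 5.43 at PRO and 5.1 and 5.75 at DIFF. The order in WT was thus not particular to the regions named, and its share over all regions was not counted. The 37 bases around the summit had 1576 exact copies in the genome for both Greb1 and Dop1b, 4 for Gphn, 3 for Chl1 and 3 for Il31ra. That in Il31ra also lay 2.43 kb from a transcript start. The windows of the first of these, with repeated stretches and SOX matches from bases 20 and 140 in Chl1, were chr6:103649111-103649311 and chr12:78350883-78351083.
Chl1: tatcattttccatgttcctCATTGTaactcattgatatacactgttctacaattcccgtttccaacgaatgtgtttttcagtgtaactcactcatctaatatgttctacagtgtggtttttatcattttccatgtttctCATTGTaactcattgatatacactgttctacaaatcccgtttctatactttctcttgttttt
Gphn: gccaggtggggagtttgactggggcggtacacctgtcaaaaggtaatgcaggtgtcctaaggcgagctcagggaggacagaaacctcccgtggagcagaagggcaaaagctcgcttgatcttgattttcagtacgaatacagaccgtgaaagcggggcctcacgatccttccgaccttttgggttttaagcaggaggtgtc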

How the data were processed

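ATAC-seq peak lists of 10 libraries were analysed. Per the study's methods, the authors removed adapters (Cutadapt), dropped reads under 20 bases after quality trimming (Trimmomatic), mapped the rest to GRCm38 with Bowtie2, marked duplicates and called narrow peaks with MACS2 on each library at a false discovery rate of 0.05; versions, read shift and extension size are not given in the sources used here. The deposited fold enrichment is a ratio, summit pileup over a background estimated nearby in that library, so a neighbouring peak can lower it. The deposited −log10 p-value chose each region's summit and the deposited −log10 q-value served as a filter in an alternative. The peak score in the deposited lists was not used. Lists hold no read counts, so depth is unknown, and a region without a peak was not called at that depth, not shown to be closed.

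Regions were merged at an overlap of at least 1 bp and annotated with GENCODE M21 (the authors used another release of the same build). The host was checked against RefSeq gene spans (GRCm38.p6), and in the lists of host genes only RefSeq spans count. Normal scores of rank were compared in limma 3.58.1 (R 4.3.3) by fitting all 10 libraries together with a mean for each group and Benjamini-Hochberg adjustment over all regions. The fit was also run on simulated scores with independent noise and a known rise in WT DIFF. These scores had no tied lowest place and no differences in list length, so that run cannot show how the fit deals with either. Other steps used Python 3.11.15, pandas 2.3.3, numpy 2.4.6 and scipy 1.17.1. Shares per library were compared by exact permutation within genotype or condition. DiffBind, the test in the study's methods, works on alignments, and these were not used here. Motifs were searched as exact letters within 100 bases either side of the summit. Gene lists, written from general knowledge, were not set against each other by a test.

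Regions named are the 8 largest falls and 8 largest rises among calls in WT (at most 1 per host gene), the 5 of highest mean percentile, every region called between genotypes and, as none was called, the 2 with the smallest p for the interaction. Hosts named are the 8 with the most regions, falls or rises, and in each list the 4 genes with the most tested regions; some items these rules name are not reported here. The regions, lists and motifs were chosen with earlier results of these data known. Alternatives covered the regions tested, ranking by p-value, equal list lengths, a stricter q-value, peaks covering the summit, distance to a start, a replicate block, the libraries in the fit, each library left out and, added after seeing the data, a crossed block and RefSeq spans.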

Additional observations from a re-analysis of the deposited data

How the results depend on the processing

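The counts rest on 2 or 3 cultures per group and on lists without read numbers, so depth and accessibility are not separated. The number of distal intronic regions called from PRO to DIFF was 5526 in WT and 3660 in p27KO and stayed within 1.5 times that under most alternatives. It was 1944 in WT and 1048 in p27KO when only the 10619 regions with a peak in all 10 libraries were tested. Fewer regions entered, and both counts were also smaller shares of the regions tested than in the main test of 22934. Leaving out 1 library gave 4180 to 5347 calls in WT and 1736 to 3740 in p27KO (the highest without WT DIFF replicate 3). Where a p27KO library was left out, the lone library of its group was assumed to vary like the other groups. The p27KO count was 2243 without PRO replicate 1, 1736 without PRO replicate 2, 1895 without DIFF replicate 1 and 1875 without DIFF replicate 2. The share of falls among calls ranged from 40.6% to 58.8% in p27KO (the extremes being without PRO replicate 2 and with regions in all 10 libraries) and from 47.7% to 54.0% in WT.

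The interaction called 0 regions (0 to 0 with a library left out), and 4 when the test took in every region found in 2 or more lists. Between genotypes at PRO the count was 4 in the main test, 0 with regions in all 10 libraries, 10 with regions in at least 2, 2 with the top 57000 peaks, and 1 to 7 with a library left out (1 without p27KO PRO replicate 1, 2 without p27KO PRO replicate 2 or any WT PRO library, 7 without WT DIFF replicate 3). At DIFF it was 1, and 0 with regions in all 10 libraries, 2 with regions in at least 2, 2 ranked by −log10 p-value, 3 with the top 57000 peaks, 0 with only the groups compared in the fit, and 0 to 3 with a library left out (3 without WT DIFF replicate 3, 1 without WT DIFF replicate 2, 0 without any of the others). The cause of these small counts' movement was not tested.

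Deviations from the group mean of same-numbered PRO and DIFF libraries correlated at 0.033 to 0.065 in WT and −0.141 in p27KO. With 2 libraries per p27KO group the value is the same for both replicate numbers. These correlations cannot settle whether replicate numbers pair the samples, since differently numbered libraries were not compared. With the replicate block, calls were 5350 in WT, 3496 in p27KO, 4 between genotypes at PRO and 3 at DIFF. With the p27KO numbers crossed, an alternative chosen after seeing the data, they were 5512, 3596, 4 and 3.

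With a library left out, closed regions numbered 1746 to 3718 in WT (2450 without WT PRO replicate 3 and 3718 without WT DIFF replicate 3) and 5078 to 6478 in p27KO (6218 without PRO replicate 2, 6478 without DIFF replicate 2). Opened regions numbered 931 to 1696 in WT (1336 without WT DIFF replicate 1, 1696 without replicate 2) and 1845 to 2895 in p27KO (2448 without PRO replicate 1, 2895 without DIFF replicate 1, 2232 without DIFF replicate 2). Fewer libraries make the rule easier to meet. With the top 57000 peaks, 1965 closed in p27KO. The share of distal intronic regions turned to 0.534 points higher at DIFF (exact permutation p = 0.0333) with the top 57000 peaks, and the difference between genotypes, p27KO minus WT, to −0.298 points (exact permutation p = 0.18). With a library left out these differences ranged from −0.663 to 0.0449 and from −0.24 to 0.467; DIFF minus PRO turned positive without p27KO DIFF replicate 1 (0.0449), and p27KO minus WT turned negative without WT DIFF replicate 1 (−0.043), WT DIFF replicate 2 (−0.148), p27KO PRO replicate 1 (−0.0698) or p27KO DIFF replicate 2 (−0.24). Among the named regions, every call of a fall or rise in WT held under each alternative that tested it, and the calls lost were those in Pcca, Nxpe4, Nrg1 and Lats2 between genotypes.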
